A study of Mus musculus with 10 samples.

Results

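The variable segments of the immunoglobulin heavy chain (Ighv) were followed in spleen B and T cells after repression of Pou2f1. Members were all genes of the deposited count table whose symbol starts with Ighv and a digit, which gave 183 of 56893 genes. RNA with poly(A) tails had been sequenced from primary mouse spleen cells, and the Pou2f1 promoters P1 and P2 had been targeted by CRISPR interference, in which a guide RNA leads a dead Cas9 to a promoter to lower its transcription. The groups were mock B cells, B cells with sgRNA-P1, B cells with sgRNA-P2, mock T cells and T cells with sgRNA-P1. The sources used here do not give the strain, age, cell selection or time after treatment, nor what the mock cells received. The labels list 2 replicates per group, but the 2 deposited columns of a group were closer to each other than sampling noise allows and were treated as 1 sample. No comparison therefore has a replicate check or a p-value. Brackets hold 95% counting intervals, computed on read pairs, and cover counting error only.

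A B cell makes its heavy chain by joining 1 of many V segments to a D and a J segment. The V promoter then transcribes the joined exon together with a constant gene, first Ighm and Ighd. Each V promoter carries an octamer motif, which Oct-1 (the product of Pou2f1) and the related factor Oct-2 (Pou2f2) bind with the B cell coactivator encoded by Pou2af1. Which segments a population of B cells uses is fixed mainly by recombination during development in the bone marrow, so usage in mature cells records past joining, while the summed level also reflects transcription. Segments fall into families by sequence. Family Ighv1, also called J558, lies mostly far from the D and J segments, and families Ighv5 and Ighv2 (Q52) lie near them.

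The sequences of the 5 most used members show what joins the rest of the exon. These are the last 60 bases of the GENCODE M21 transcripts (build GRCm38), 5′ to 3′ on the coding strand. Capitals mark the codons for tyrosine, tyrosine or phenylalanine, and cysteine that close the third framework region, just before the joined junction.
Ighv1-26: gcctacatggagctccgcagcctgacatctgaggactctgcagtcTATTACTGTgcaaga
Ighv1-9: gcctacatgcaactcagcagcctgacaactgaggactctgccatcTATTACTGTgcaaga
Ighv9-3: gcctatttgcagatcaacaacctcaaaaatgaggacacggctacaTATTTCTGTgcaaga
Ighv10-1: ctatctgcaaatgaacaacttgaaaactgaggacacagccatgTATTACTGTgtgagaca
Ighv3-6: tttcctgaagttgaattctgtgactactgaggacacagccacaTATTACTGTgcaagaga
The motif searched was TAT or TAC, then TAT, TAC, TTT or TTC, then TGT or TGC, on the coding strand only and in any frame. Among the members annotated as functional genes, 108 of 113 held it in their last 60 bases (95.6%), against 37 of 69 pseudogenes (53.6%).

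The members are close relatives. The median identity of a member to its nearest other member was 93.7%, and for 174 of 183 that nearest member was of the same family. In 18 members it was 98% or more, of which 3 (Ighv1-72, Ighv1-52 and Ighv1-15) reached 5 CPM (counts scaled to library size) in a B cell library, so their counts are uncertain where reads fit both copies. How reads that fit several segments, cross the V-D-J junction or carry mutations were treated is not stated in the labels or notes, and their part in the counts was not tested.

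In the deposited coordinates all 183 members lay on the minus strand of chromosome 12, from 113536547 to 115973713, a stretch of 2437 kb. The mouse build named in the submitters' processing notes was mm39. Ighv5-1 was the member nearest to the constant genes and Ighv1-86 the farthest. Ighm lay at chr12:113382178-113386350 and Ighj1 at chr12:113393401-113393453. GENCODE M21 lists 113 of the members as functional V genes, 69 as V pseudogenes and 1 as IG_LV_gene.

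The libraries held 28118839 to 71858511 reads. Pou2f1 was lower in each library with a guide than in its mock, with a log2 fold change of -0.78 in B cells with sgRNA-P1, -0.86 in B cells with sgRNA-P2 and -1.06 in T cells. Markers followed the cell labels. The 12 B cell markers summed to 13927 to 14066 CPM in the 3 B cell libraries and to 38.6 and 35.4 CPM in the T cell libraries, while the 10 T cell markers summed to 46.2 to 47.6 CPM in B cells and to 5114 and 5076 CPM in T cells. Nearly all of that sum in B cells was Lck, at 46.1, 45.2 and 46.8 CPM in mock, sgRNA-P1 and sgRNA-P2. The median of the 10 T cell markers there was 0.0887, 0.114 and 0.0356 CPM.

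The summed Ighv level was nearly the same in the 3 B cell libraries. It was 869 CPM [855 to 883] in mock B cells from 29388 reads, 871 CPM [859 to 882] with sgRNA-P1 from 41956 reads and 866 CPM [851 to 882] with sgRNA-P2 from 24356 reads. All 3 intervals overlapped. The log2 ratio to mock was 0.00 with sgRNA-P1 [-0.03 to 0.03] and -0.00 with sgRNA-P2 [-0.04 to 0.03], and between the guides it was 0.01 [-0.03 to 0.04]. Both guide comparisons share the mock library. In bulk samples, fewer cells of a type and less RNA per cell cannot be told apart.

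The P1 library differed from mock along base composition. Over 9703 genes the rank correlation of the log2 fold change with transcript GC content was -0.50, against -0.17 for sgRNA-P2 over 9704 genes. The median GC content was 49.2% in the members and 49.0% in all genes compared for sgRNA-P1. With a joint trend in GC and length taken out, the summed log2 ratio was 0.08 for sgRNA-P1 and 0.04 for sgRNA-P2, above the upper bounds of the intervals given. How much of that move came from GC content and how much from gene length was not tested. The correlations above cover GC content alone.

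The other parts of the antibody genes differed in how close they lay to mock. The V segments of the kappa light chain (Igkv) summed to 1681, 1641 and 1627 CPM in mock, sgRNA-P1 and sgRNA-P2, a log2 ratio to mock of -0.04 [-0.06 to -0.01] and -0.05 [-0.07 to -0.02]. Ighm, the constant gene of IgM, was at 5605, 5773 and 5768 CPM. With sgRNA-P1 the log2 ratio to mock was 0.10 for Ighd [0.09 to 0.12] and 0.13 for Igkc [0.11 to 0.15], the constant genes of IgD and of the kappa chain. The heavy chain joining segments (Ighj) summed to a ratio of -0.27 [-0.42 to -0.12] with sgRNA-P1 and -0.05 [-0.21 to 0.12] with sgRNA-P2. Per kb of length, the members summed to 79.9 for every 100 of Ighm in mock B cells, 77.8 with sgRNA-P1 and 77.5 with sgRNA-P2. Pou2f2 was at 338, 361 and 347 CPM and Pou2af1 at 621, 636 and 621 CPM. Of 13 transcription and architectural factors of the locus, Pou2f1 was past 1.5-fold, lower with each guide, and none of the other 12 was. Over all genes 0.477% were higher and 0.258% lower by that size with sgRNA-P1, and 0.129% and 0.149% with sgRNA-P2. Nothing is therefore read from the other 12. By interval, 7 of the 13 were above 0 and 1 below with sgRNA-P1, against 17.6% and 15.6% of all genes. With sgRNA-P2, 0 were above and 1 below, against 5.22% and 6.31%.

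**Figure D1:**
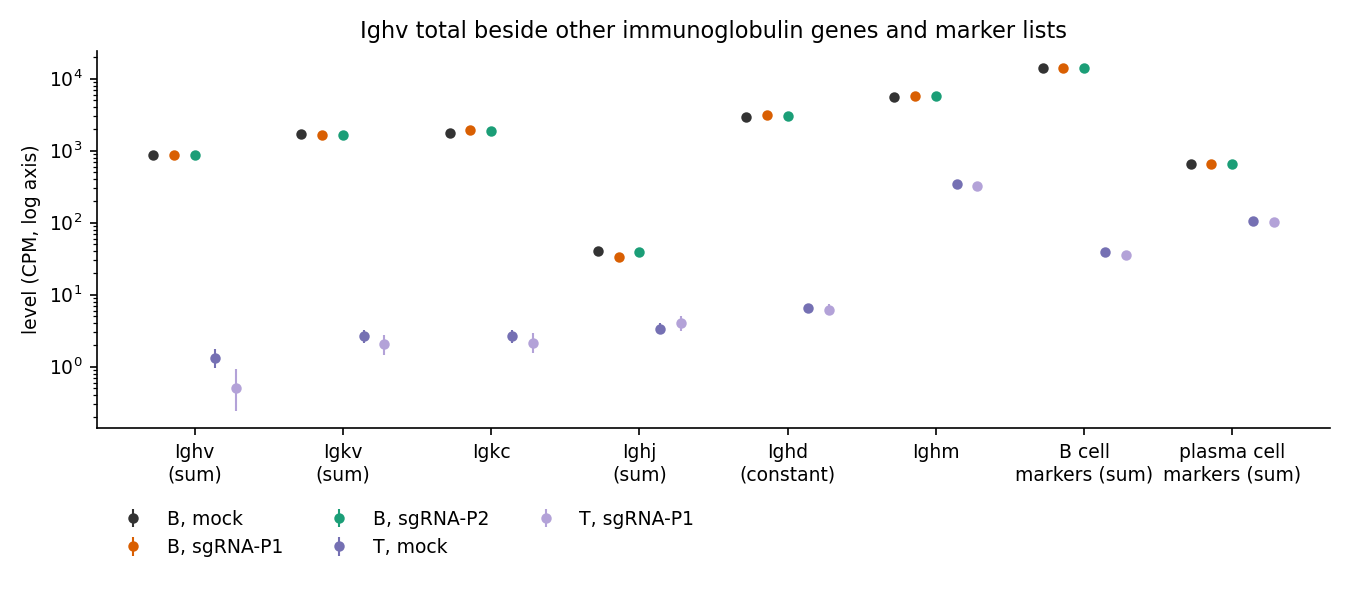
Level of the Ighv sum, other immunoglobulin genes and marker sums in the 5 libraries, in CPM on a log axis, with 95% counting intervals as bars. The Ighv sum lies at 866 to 871 CPM in the 3 B cell libraries and at 1.30 and 0.501 CPM in the T cell libraries, where Ighm lies at 341 and 323 CPM.

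Reads were spread over many members. In mock B cells 130 members had reads, in B cells with sgRNA-P1 139 and with sgRNA-P2 126, in the order of library depth for the guides and mock. In all 3 B cell libraries 121 members had reads, and 40 had none in any of the 5 libraries. Of those 40, 35 were pseudogenes, 1 was the IG_LV_gene and 4 were annotated as functional: Ighv5-12-4, Ighv16-1, Ighv1-24 and Ighv1-62-1. A count of 0 allows a level of up to 0.218 CPM in mock B cells, 0.153 CPM with sgRNA-P1 and 0.262 CPM with sgRNA-P2, by the same interval on read pairs. At 1 CPM or more in mock B cells there were 88 functional members and 6 pseudogenes. Pseudogenes held 3.11%, 3.13% and 3.11% of Ighv reads in mock, sgRNA-P1 and sgRNA-P2. The highest of them, named after their values were seen, were Ighv1-14 with 261, 425 and 222 reads and Ighv3-2 with 237, 299 and 197 reads.

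Usage, the share of all Ighv reads that a member holds, had the same leaders in each B cell library. Ighv1-26 was first in all 3, with 4.26% [3.94 to 4.60] in mock, 4.34% [4.07 to 4.62] with sgRNA-P1 and 4.32% [3.97 to 4.70] with sgRNA-P2. Ighv1-9 was second in all 3, with 3.47%, 3.76% and 3.61%. Places 3 to 5 were held by Ighv9-3, Ighv10-1 and Ighv3-6 in each library, in different orders. Ighv9-3 held 3.31%, 3.13% and 2.90%, Ighv10-1 held 3.22%, 3.31% and 3.52%, and Ighv3-6 held 3.10%, 3.51% and 3.47%. With sgRNA-P2 the interval of Ighv9-3 [2.61 to 3.21] overlapped that of Ighv10-1 [3.20 to 3.87] at its edge and that of Ighv3-6 [3.16 to 3.81] in part. In each library the interval of Ighv1-26 lay above that of Ighv1-9, while the members in places 2 and 3 overlapped, as did their neighbours down to place 5.

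The next places in mock B cells were taken by Ighv2-9 at 3.05%, Ighv6-3 at 2.67%, Ighv5-17 at 2.48%, Ighv8-12 at 2.46% and Ighv6-6 at 2.37%. The 10 leading members came from 8 families and held 30.4% of Ighv reads in mock, and the 10 leading members of the other libraries held 30.5% and 30.6%. Of the 10, 8 were among the leading 10 of all 3 B cell libraries. In mock B cells 21 members made up 50% of reads, and 21 did so with either guide. Per kb of length Ighv1-26 was also first, at 105 CPM per kb in mock, and Ighv1-9 second, at 86.0 CPM per kb.

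**Figure D2:**
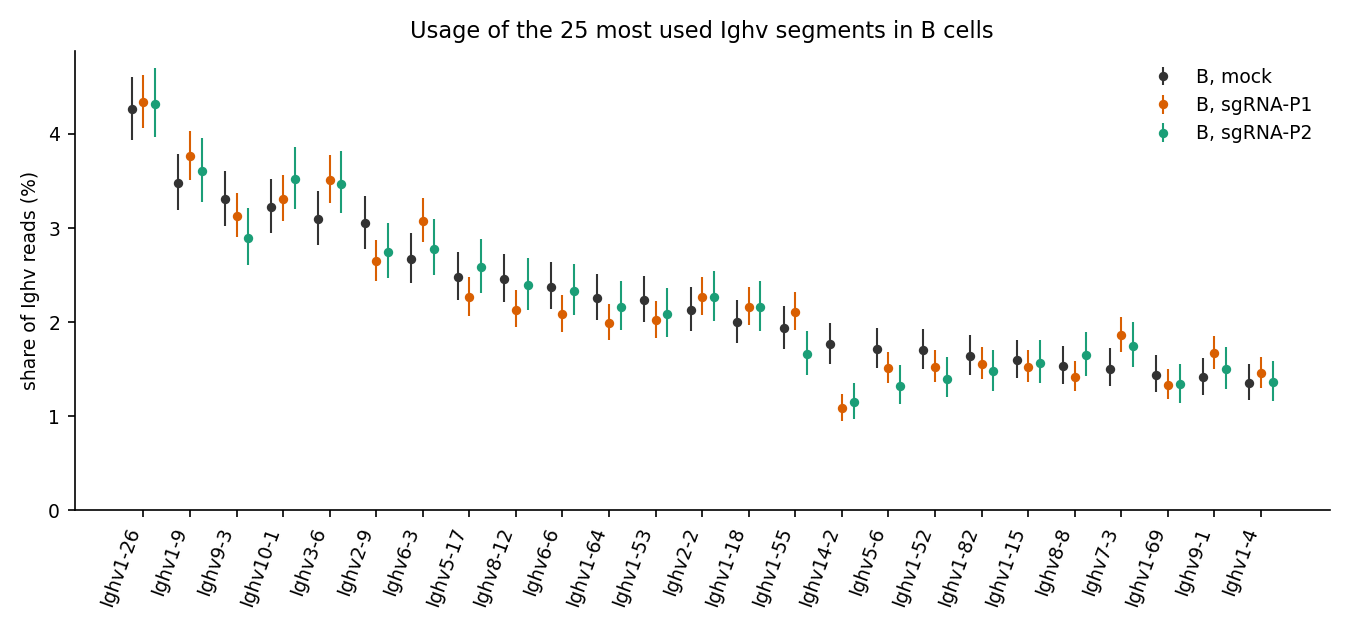
Share of Ighv reads in percent for the 25 most used members of mock B cells, in the 3 B cell libraries, with 95% binomial counting intervals as bars. Ighv1-26 is highest in each library, and for Ighv14-2 the mock interval around 1.76% lies above the guide intervals around 1.09% and 1.15%.

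The evenness of usage was alike in the 3 libraries. The effective number of members (the number of equally used segments with the same Shannon entropy) was 73.2 [72.2 to 74.2] in mock, 73.9 [73.1 to 74.7] with sgRNA-P1 and 72.9 [71.9 to 74.0] with sgRNA-P2. These intervals overlapped. The usage difference is the share of reads that would have to move between members to turn one library into the other. It was 6.22% between sgRNA-P1 and mock, 5.28% between sgRNA-P2 and mock and 4.90% between the guides. Libraries with equal usage would also differ by this measure through counting error. The part of counting error in these values was not tested. Across the 66 members at 5 CPM in any B cell library, the rank correlation of usage was 0.960, 0.962 and 0.969 for the same pairs. These points are genes that share 1 library each, and both guide pairs share the mock library.

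By family, Ighv1 held 47.8% of Ighv reads in mock [47.0 to 48.6], 47.6% with sgRNA-P1 [46.9 to 48.3] and 47.3% with sgRNA-P2 [46.4 to 48.2], with 92 members. Ighv2, with 11 members, held 8.65%, 8.66% and 8.79%. Ighv5, with 21 members, held 8.43%, 8.45% and 8.42%. The small families Ighv9, Ighv14 and Ighv7 have 4 members each. Ighv9 held 5.35%, 5.57% and 5.09%, and Ighv7 held 2.26%, 2.56% and 2.46%. Ighv11, which is known from B-1 cells that bind phosphatidylcholine, held 0.473%, 0.408% and 0.374% with overlapping intervals. Ighv16 has 1 member and no read. Of the 16 families, Ighv14 was the one with a counting interval of its level that excluded 0 in a guide comparison with mock. It did so with sgRNA-P1 and not with sgRNA-P2. Of all genes, 17.6% had an interval above 0 and 15.6% below with sgRNA-P1, so nothing is read from this count.

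**Figure D3:**
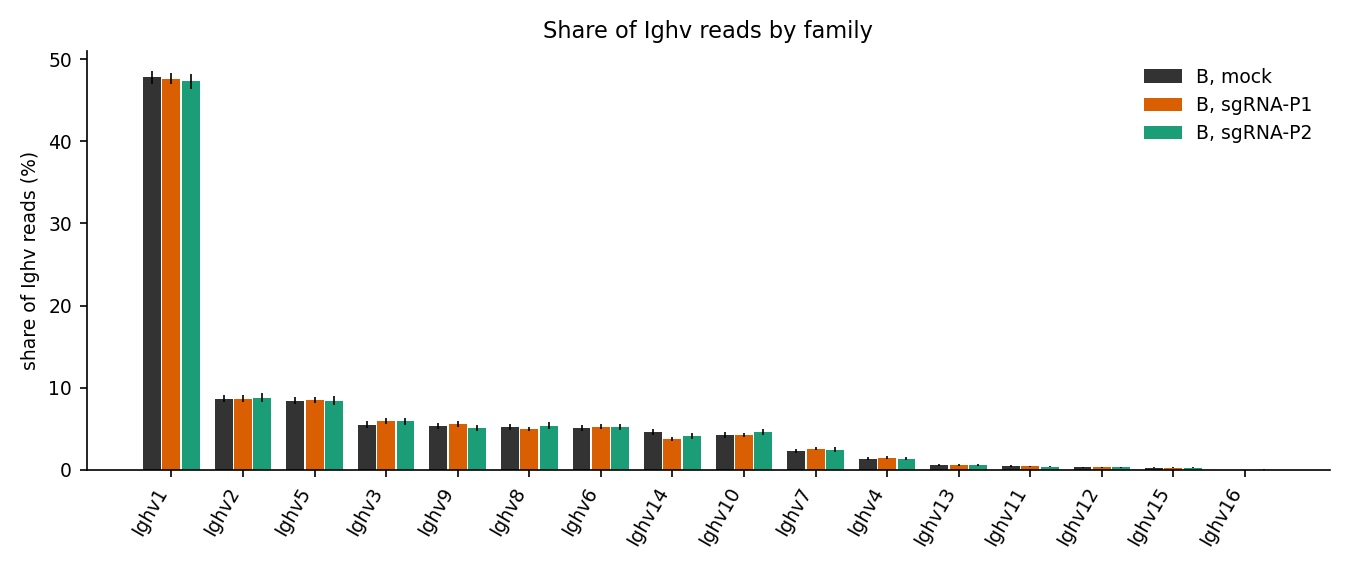
Share of Ighv reads in percent by family for the 3 B cell libraries, with 95% binomial counting intervals as bars. Family Ighv1 holds 47.3 to 47.8%, and the intervals of Ighv14 do not overlap between mock at 4.56% and sgRNA-P1 at 3.76%.

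Position along the locus gave a similar profile in each library. The locus was divided into 4 stretches of 609 kb from the constant gene side. The nearest stretch held 31.8% of Ighv reads in mock, 31.3% with sgRNA-P1 and 31.1% with sgRNA-P2. The second held 35.1%, 36.4% and 36.2%, the third 15.1%, 14.3% and 13.99%, and the fourth, which is farthest, 18.1%, 18.1% and 18.7%. The numbers of members were 53, 53, 43 and 34. In the second stretch the intervals were [34.3 to 35.8] in mock, [35.7 to 37.0] with sgRNA-P1 and [35.4 to 37.1] with sgRNA-P2. In the third they were [14.5 to 15.7], [13.8 to 14.8] and [13.4 to 14.6]. They overlap in part, which does not show that the differences lie within counting error.

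**Figure D4:**
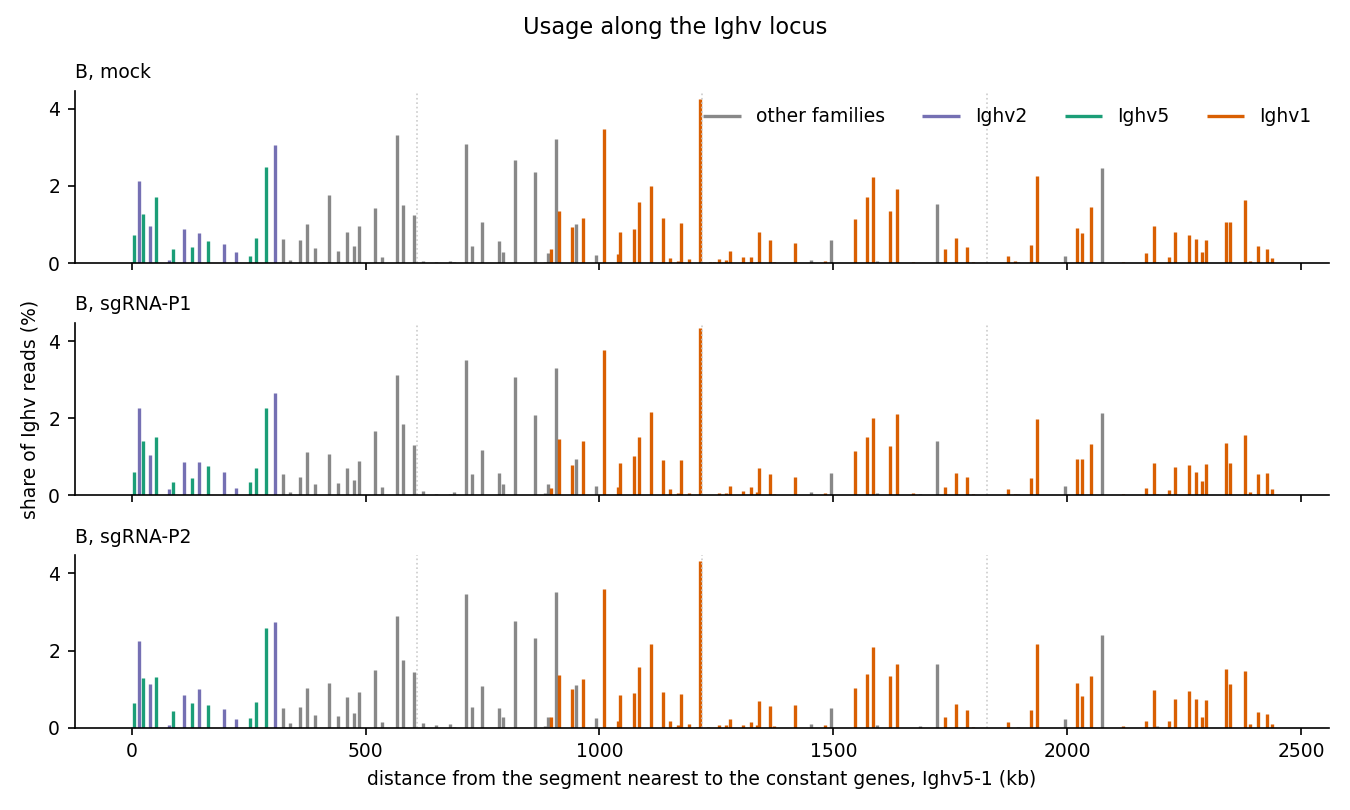
Share of Ighv reads in percent against the distance in kb from Ighv5-1, one line per member, for the 3 B cell libraries, coloured by family, with dotted lines at the bounds of the 4 stretches. Ighv2 lies within 306 kb of Ighv5-1, Ighv1 spans 779 to 2437 kb, and the profile of peaks repeats in each library.

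Single members were compared at 5 CPM or more in the higher library. With sgRNA-P1, 1 of 64 was higher than mock by 1.5-fold (Ighv1-85) and 1 was lower (Ighv14-2), where 0.477% and 0.258% of the 10062 genes compared were past that size in each direction. With sgRNA-P2, 1 of 63 was higher (Ighv5-12) and 1 lower (Ighv14-2), against 0.129% and 0.149% of 10061 genes. Between the guides 1 of 63 was higher with sgRNA-P1 (Ighv1-85) and none lower, against 0.298% and 0.119% of 10059 genes. Ighv1-85 and Ighv5-12 reached 5 CPM through the library where they were high and no other, so their calls follow in part from the filter and nothing is read from these shares for them. Ighv14-2 was above 5 CPM in all 3 libraries. The highest member, Ighv1-26, was at 37.0 CPM in mock B cells, and counting intervals are wider at such levels than for highly expressed genes.

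The members were also counted by interval. For sgRNA-P1 against mock, 8 of 64 members had an interval above 0 and 4 below, against 17.6% and 15.6% of all genes. For sgRNA-P2, 4 of 63 were above and 4 below, against 5.22% and 6.31%. Between the guides 2 were above and 2 below, against 13.6% and 9.62%. The median log2 fold change of the members was -0.03 for sgRNA-P1, where that of all genes was -0.01, and 0.01 for sgRNA-P2, where that of all genes was -0.00. None of 66 kappa V segments was past 1.5-fold with either guide, against 0.735% of all genes with sgRNA-P1 and 0.278% with sgRNA-P2. At such shares nothing is read from a count of 0 among 66. By interval, 3 kappa segments were above 0 and 10 below with sgRNA-P1, and 1 was above and 5 below with sgRNA-P2.

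**Figure D5:**
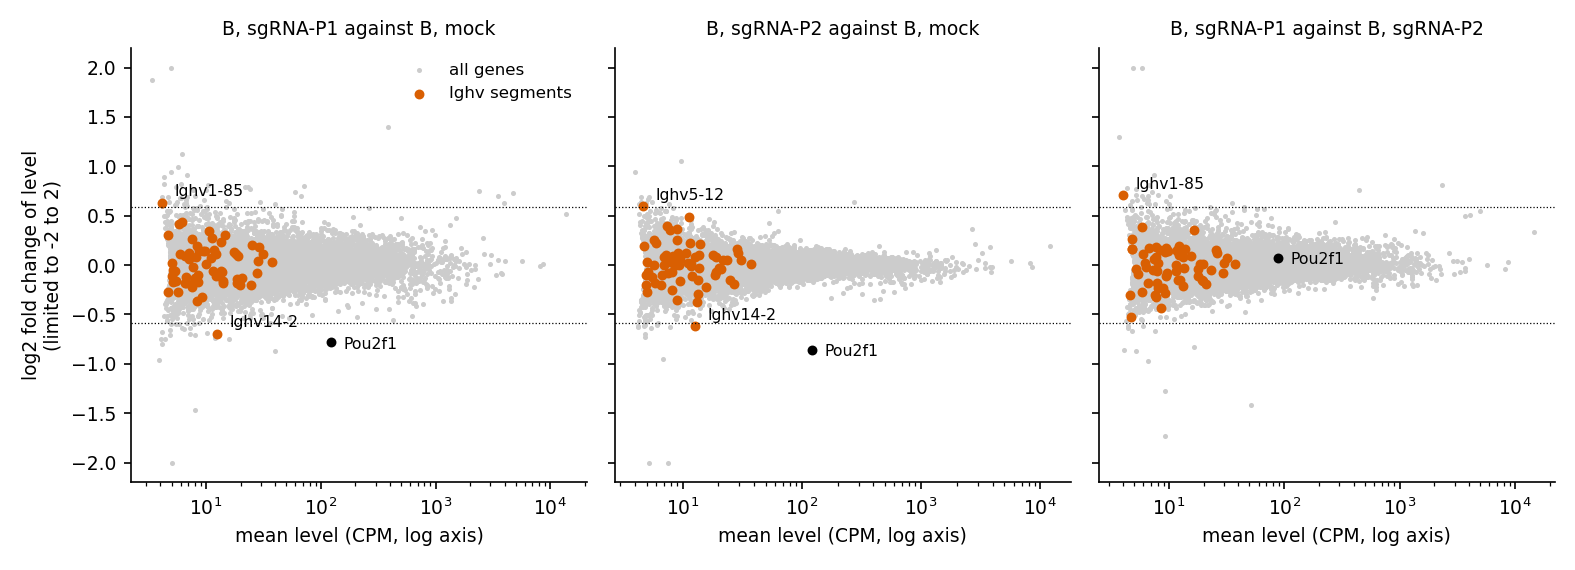
Log2 fold change against mean level in CPM on a log axis, for the Ighv members and all genes at 5 CPM or more, in the 3 comparisons of B cell libraries; dotted lines mark 1.5-fold and the black point is Pou2f1. Values beyond 2 either way are drawn at the edge. Ighv14-2 lies under the lower line in both comparisons with mock.

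Ighv14-2 was the one member lower by 1.5-fold with both guides. It had 518 reads in mock B cells, 456 with sgRNA-P1 and 280 with sgRNA-P2, which is 15.3, 9.46 and 9.96 CPM. The mock library was the high one and the intervals of the guide libraries overlapped. The log2 fold change was -0.69 with sgRNA-P1 [-0.96 to -0.43] and -0.62 with sgRNA-P2 [-0.93 to -0.32], and between the guides it was -0.08 [-0.38 to 0.24]. Its place by usage was 16 in mock, 33 with sgRNA-P1 and 31 with sgRNA-P2. Because both comparisons use the mock library, a high value in that library and a low one in both guide libraries cannot be told apart. With the GC and length trend taken out, the value for sgRNA-P2 was -0.57, short of 1.5-fold.

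Its family lies at 359 to 604 kb from Ighv5-1 and has 4 members, all annotated as functional. The other 3 stayed within 1.5-fold of mock with either guide. Ighv14-1 had 173, 204 and 134 reads, Ighv14-3 had 285, 372 and 226, and Ighv14-4 had 363, 544 and 353 in mock, sgRNA-P1 and sgRNA-P2. Their log2 fold changes with sgRNA-P1 were -0.27 [-0.71 to 0.15], -0.13 [-0.45 to 0.19] and 0.07 [-0.21 to 0.35]. The family as a whole was at 39.6, 32.7 and 35.3 CPM, and its log2 ratio to mock was -0.28 [-0.43 to -0.13] with sgRNA-P1 and -0.16 [-0.33 to 0.01] with sgRNA-P2. Without Ighv14-2, the ratio was -0.06 [-0.25 to 0.12] and 0.06 [-0.15 to 0.27].

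The 4 sequences are shown because reads must tell these genes apart. Each line is the last 180 bases of the GENCODE M21 transcript, and capitals mark bases that differ from Ighv14-2 at chr12:113958089-113958518 in the deposited coordinates, minus strand.
Ighv14-2: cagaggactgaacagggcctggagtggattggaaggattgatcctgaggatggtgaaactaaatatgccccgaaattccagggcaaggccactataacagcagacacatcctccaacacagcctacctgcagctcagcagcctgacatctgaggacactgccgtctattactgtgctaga
Ighv14-1: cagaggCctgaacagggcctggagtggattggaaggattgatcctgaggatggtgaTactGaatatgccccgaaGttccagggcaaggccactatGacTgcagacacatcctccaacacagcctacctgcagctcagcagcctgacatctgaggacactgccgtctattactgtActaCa
Ighv14-3: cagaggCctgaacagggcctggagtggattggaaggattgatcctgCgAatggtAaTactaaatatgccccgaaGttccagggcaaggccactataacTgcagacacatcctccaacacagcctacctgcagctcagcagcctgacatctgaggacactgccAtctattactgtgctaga
Ighv14-4: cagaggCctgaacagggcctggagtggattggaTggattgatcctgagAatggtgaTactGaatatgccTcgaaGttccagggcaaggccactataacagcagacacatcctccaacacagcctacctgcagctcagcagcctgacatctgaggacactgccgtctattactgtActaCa
In this stretch Ighv14-1 differed at 8 bases, Ighv14-3 at 8 and Ighv14-4 at 9. Over the whole transcript the identity to Ighv14-2 was 97.2%, 95.7% and 95.7%, and the median identity within the family was 96.0%.

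Ighv1-85, near the far end of the locus at chr12:115963648-115964081, was past 1.5-fold with sgRNA-P1 and not with sgRNA-P2. It had 109 reads in mock, 242 with sgRNA-P1 and 86 with sgRNA-P2, which is 3.22, 5.02 and 3.06 CPM. The log2 fold change was 0.63 with sgRNA-P1 [0.16 to 1.11], -0.07 with sgRNA-P2 [-0.70 to 0.51] and 0.70 between the guides [0.20 to 1.25]. Mock and sgRNA-P2 lay together, and sgRNA-P1 was above both. Its level is just at the 5 CPM bound, and with scaling by total reads it fell below that bound and was not compared.

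Ighv5-12, at chr12:113665744-113666198 among the near segments, was past 1.5-fold with sgRNA-P2 and not with sgRNA-P1. It had 125 reads in mock, 187 with sgRNA-P1 and 157 with sgRNA-P2, which is 3.69, 3.88 and 5.58 CPM. The log2 fold change was 0.59 with sgRNA-P2 [0.10 to 1.09], 0.07 with sgRNA-P1 [-0.41 to 0.55] and -0.53 for sgRNA-P1 against sgRNA-P2 [-0.97 to -0.08]. With a prior of 5 reads it was 0.58, short of 1.5-fold.

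The other members at the ends of the order stayed within 1.5-fold. The next largest with sgRNA-P1 were Ighv1-78 at 0.43, Ighv5-9-1 at 0.42, Ighv1-80 at 0.34 and Ighv7-3 at 0.31, on the log2 scale. The next smallest were Ighv1-81 at -0.37, Ighv1-19 at -0.33, Ighv14-1 at -0.27 and Ighv5-2 at -0.27. With sgRNA-P2 the next largest were Ighv1-80 at 0.49, Ighv1-75 at 0.39, Ighv1-66 at 0.36 and Ighv2-6 at 0.36. The next smallest were Ighv5-6 at -0.38, Ighv1-19 at -0.35, Ighv1-52 at -0.29 and Ighv7-1 at -0.27. Ighv1-80 and Ighv1-19 are on both lists on the same side, again against the shared mock library. Ighv1-80 had 316, 571 and 369 reads, and Ighv1-19 had 344, 391 and 224.

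Between the guides the members after Ighv1-85 were Ighv5-9-1 at 0.38, Ighv1-55 at 0.35, Ighv2-9-1 at 0.26 and Ighv5-6 at 0.20. After Ighv5-12 the lowest were Ighv1-81 at -0.43, Ighv1-5 at -0.32, Ighv1-47 at -0.30 and Ighv1-75 at -0.30. Ighv1-55 had 568, 886 and 404 reads in mock, sgRNA-P1 and sgRNA-P2 and lay at 16.8, 18.4 and 14.4 CPM.

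T cells join the V segments of the T cell receptor and do not complete the joining of heavy chain V segments. The sum was 94 reads in mock T cells, or 1.30 CPM [0.958 to 1.73], and 20 reads with sgRNA-P1, or 0.501 CPM [0.240 to 0.921]. The mock T level was 0.150% of the mock B level, a log2 ratio of -9.37 [-9.83 to -8.97], and without the 3 leading members of mock T cells the ratio was -9.98. The 60 members at 5 CPM in mock B cells reached that level in mock B cells and not in mock T cells, so all 60 had to be lower in T cells and nothing is read from that count. Over all genes 18.4% were lower by 1.5-fold. Of the 60 members, 37 had no read in mock T cells, where a count of 0 allows up to 0.102 CPM.

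Ighm was closer between B and T cells than the V segments were. Mock T cells held 341 CPM of Ighm, 6.09% of the mock B level. The members summed per kb to 1.995 for every 100 of Ighm in mock T cells and to 0.814 with sgRNA-P1, against 79.9 in mock B cells. Ighm was not alone in this. The D segments were at 15.9% of the mock B level from 53 reads in mock T cells, and Ighj at 8.35% from 243 reads. Neither sum describes its members alike. Ighd4-1 alone had 36 of the D reads in mock T and 25 reads in mock B cells, 67.6% of the mock B level. Ighj1 was at 49.1%, Ighj2 at 16.8%, Ighj3 at 5.97% and Ighj4 at 3.35%. Igha, the constant gene of IgA, was at 4.96%, and the switched constant genes together were at 2.68%. Ighd, the constant gene of IgD, was at 0.219% of the mock B level, Igkv at 0.157% and Igkc at 0.150%. The 12 B cell markers in mock T cells summed to 0.277% of the mock B level, none was at 0 and they ranged from 0.0215% for Ebf1 to 2.76% for Blk. Their part in the Ighv reads of T cells was not tested.

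Usage in T cells rested on few reads. In mock T cells 29 members had reads, 19 of them 1 or 2. Ighv1-75 had 15 reads, Ighv1-81 had 11, Ighv6-4 had 8, Ighv9-3 had 7 and Ighv1-55 had 6. The first 3 made up 36.2% of Ighv reads there. Ighv6-4 had 3, 1 and 2 reads in mock, sgRNA-P1 and sgRNA-P2 B cells, so that its level was 0.111 CPM in mock T and 0.0887 CPM in mock B cells. Ighv1-57 was the other member above its mock B level, with 2 reads against 0. The usage difference between mock T and mock B cells was 63.9%. It rests on 94 reads in mock T cells, and the part of counting error in it was not tested.

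The summed level was lower in T cells with sgRNA-P1 than in mock T cells, at 38.4% of it, a log2 ratio of -1.32 [-2.53 to -0.38]. Beside it, Igkv had a ratio of -0.35 [-0.92 to 0.18] from 190 and 82 reads, and the B cell markers together had -0.13 [-0.26 to 0.01] from 2786 and 1414 reads. Ighm was at -0.08 [-0.12 to -0.04]. No member reached 5 CPM in either T cell library, so none was compared singly. Among the 5 leading members of mock T cells, sgRNA-P1 T cells had 2 reads of Ighv1-75, 4 of Ighv1-81, 0 of Ighv6-4, 2 of Ighv9-3 and 0 of Ighv1-55.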

How the data were processed

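Read counts came from 1 deposited table of raw counts per gene, with 2 columns for each of 5 groups. The submitters' processing notes name HISAT2, featureCounts and the builds hg38 and mm39. Versions, annotation, strand and the handling of multimapped reads are not stated there. In every group the columns were 1 count divided in a fixed proportion to within 1 read, so they were summed and used as 1 library. Of sums under 10 reads, 72.0 to 74.8% were odd, as a pair count less 1 lost read gives, so intervals were computed on reads divided by 2.

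Counts were scaled by TMM (edgeR 4.0.16, R 4.3.3) to CPM. Log2 fold changes used a prior of 1 read, a minimum of 5 CPM in the higher library and a size of 1.5-fold in place of a test. Ratios have exact conditional, levels exact Poisson and shares Clopper-Pearson intervals at 95%. A count of 0 is given the upper bound of that Poisson interval. Members and lists were chosen with earlier results of these data known. Named members are the 10 most used in mock B cells, the 5 largest and 5 smallest fold changes of each B cell comparison, the 5 highest in mock T cells and both ends of the locus; Ighv14-3, Ighv14-4 and members with few or no reads were added after their values were seen. Sequences are from GENCODE M21 (GRCm38), which matched 183 of 183 symbols. Intervals were tested on simulated data with counting error alone, which is the model they assume. That test does not cover differences between cultures or a GC trend. Alternatives were other scalings (total reads, DESeq2 1.42.0), filters, priors, single columns and a GC and length trend.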

Additional observations from a re-analysis of the deposited data

How the results depend on the processing

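No paired analysis was possible because the 2 columns of each group are 1 library divided, so the replicate numbers mark no separate samples. Single columns are therefore no check between cultures. Alternatives chosen after seeing the data were the T cell total without its 3 leading members and family Ighv14 without Ighv14-2. Of 210 recomputed fold changes of named members, all 210 stayed within the counting interval of the value given. They include single columns, which are the same count divided, and scalings that shift every member alike. The tally could therefore hardly fail, and nothing is read from it. The summed level moved to 0.0845 for sgRNA-P1 and 0.0419 for sgRNA-P2 with the GC and length trend subtracted, and to -9.98 for mock T against mock B cells without the 3 leading members. From single columns the summed log2 ratio of T cells ranged from -1.94 to -0.78, and the effective number ranged from 14.5 to 21.2 in mock T cells and from 3.78 to 10.02 in T cells with sgRNA-P1. With DESeq2 size factors, or TMM factors without antigen receptor genes, the counts past 1.5-fold stay at 2, 2 and 1. Total-read scaling leaves 1 member past 1.5-fold for sgRNA-P1 and 0 between the guides. For sgRNA-P2 the count is 1 with the trend subtracted and 1 with a prior of 5 reads. At 1 CPM the counts past 1.5-fold are 7 (sgRNA-P1), 4 (sgRNA-P2), 3 (between guides) and 94 (mock T against mock B); at 20 CPM they are 0, 0, 0 and 10; with no filter they are 28, 26, 23 and 128, and 21 for the T cell guide. These filters change how many members are compared, and for mock T against mock B cells they fix the count. The effective number in mock, sgRNA-P1 and sgRNA-P2 B cells is 68.0, 68.5 and 67.7 with functional members alone and 66.6, 67.4 and 66.7 without members at 98% identity. Without the 3 most used members the usage difference of sgRNA-P1 from mock is 6.69%.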

Other observations

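The joining segments (Ighj) of the heavy chain were low and differed among themselves. Ighj1 to Ighj4 together had 1366 reads in mock B cells, 1614 with sgRNA-P1 and 1097 with sgRNA-P2, which is 40.4, 33.5 and 39.0 CPM. The log2 ratio to mock was -0.27 [-0.42 to -0.12] with sgRNA-P1 and -0.05 [-0.21 to 0.12] with sgRNA-P2. Ighj4, the highest of them, had 839, 991 and 617 reads. Ighj3 had 275, 284 and 263 reads and a ratio of -0.46 [-0.82 to -0.12] with sgRNA-P1 against mock. Between the guides Ighj3 was lower with sgRNA-P1 by more than 1.5-fold, with a log2 ratio of -0.67 [-1.02 to -0.32]. These segments are 53 or 54 bases long in the cases of Ighj1 and Ighj4.

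The recombination genes were near the limit of counting in B cells. Rag1, which with Rag2 cuts the DNA for V-D-J joining, had 23, 17 and 9 reads in mock, sgRNA-P1 and sgRNA-P2 B cells, and Rag2 had 1, 0 and 1. Dntt, which adds bases at the junctions, had 1, 7 and 0 reads in B cells and 375 and 218 reads in mock and sgRNA-P1 T cells. The switched constant genes summed to 151, 138 and 146 CPM in the B cell libraries, and Igha, the constant gene of IgA, was at 62.6, 53.6 and 61.7 CPM, a log2 ratio to mock of -0.22 [-0.34 to -0.11] with sgRNA-P1. Among the 8 plasma cell markers, Sdc1 had a ratio of -0.35 [-0.56 to -0.13] and Mzb1 of -0.34 [-0.61 to -0.07] in the same comparison. Jchain at -0.04 and Xbp1 at -0.08 had intervals that held 0. Irf4 at 0.06 [0.02 to 0.10], Prdm1 at 0.25 [-0.15 to 0.65] and Derl3 at 0.11 [-0.18 to 0.42] went the other way. The 8 together had 0.01 [-0.02 to 0.05], and Irf4 made up 447 of their 660 CPM with sgRNA-P1. Tnfrsf17 had 1 read in mock and 0 with either guide. With sgRNA-P2 the ratio to mock was -0.26 [-0.51 to -0.01] for Sdc1. It was -0.02 [-0.15 to 0.11] for Igha and -0.03 [-0.33 to 0.26] for Mzb1. Of all genes, 17.6% had an interval above 0 and 15.6% below with sgRNA-P1, so nothing is read from these single intervals. The part of the plasma cell markers in the value of Igha was not tested.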
